A study of Homo sapiens with 45 samples.

Results

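In all, 7 genes of extracellular matrix crosslinking were followed: peroxidasin (PXDN), the 5 members of the lysyl oxidase family (LOX, LOXL1, LOXL2, LOXL3 and LOXL4) and elastin (ELN). They were listed by name, all 7 were found among the 41582 genes to which the deposited transcripts could be joined, and the transcript values of each symbol were summed. The genes were selected on values of these data, their levels in the 13 lines and their response to doxycycline, so the members' values in both are given as a description, with fitted errors but without a test. The study set Ewing sarcoma lines against osteosarcoma lines and asked, by its title, how the EWS::FLI1 fusion protein acts through the potassium channel gene KCNN1. Polyadenylated RNA was sequenced from 7 Ewing sarcoma lines (A673, TC71, RDES, SKES1, MHHES1, EW3 and EW24) and 6 osteosarcoma lines (U2OS, SAOS2, MG63, G292, KHOS and HOS-MNNG), untreated as far as the labels say, with 3 libraries per line. In addition, A673 cells with sh908, a hairpin against KCNN1, gave 6 libraries, 3 with the hairpin not activated (no doxycycline) and 3 with it activated by doxycycline. The labels used here do not give the dose and duration of doxycycline or say whether the 3 libraries of a group came from separate cultures. The errors therefore measure the spread between these libraries, which may be technical.

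Lysyl oxidases are secreted copper enzymes that convert lysines of collagen and elastin into aldehydes, from which covalent crosslinks form. Tropoelastin, the product of ELN, is laid down on a scaffold of fibrillin microfibrils and crosslinked by the same enzymes into elastic fibres. Peroxidasin is a haem peroxidase that forms the sulfilimine bonds holding the collagen IV network of basement membranes together. Bone and osteosarcoma are rich in crosslinked fibrillar collagen, whereas Ewing sarcoma forms little matrix.

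Each library held between 15974173 and 51413254 estimated counts. As a check of the labels, 3 of 7 Ewing sarcoma markers (NKX2-2, STEAP1 and PRKCB) had line means that did not overlap between the types, and the other 4 overlapped. NKX2-2, a transcription factor gene typical of Ewing sarcoma, had a mean of 17.9 TPM (transcript abundance corrected for length and depth) or more in all 7 Ewing sarcoma lines and 5.55 TPM or less in all 6 osteosarcoma lines. By contrast, FLI1 was at 2.08 TPM in EW3 and at 27.7 TPM in KHOS, and NR0B1 at 0.316 TPM in RDES and 0.651 TPM in MHHES1 beside 2.45 TPM in U2OS. The summed level of the 7 markers ran from 737 to 2060 TPM in the Ewing sarcoma lines and from 145 to 976 in the osteosarcoma lines, so these sums overlapped. The 7 osteoblast lineage markers summed to between 8.09 and 291.5 TPM in the Ewing sarcoma lines and between 114 and 4226 TPM, highest in SAOS2, in the osteosarcoma lines. Markers of leukocytes (4 genes, at most 2.61 TPM) and of endothelium (3 genes, at most 6.83 TPM) were low in every line, and 3 epithelial markers reached 28.4 TPM in SAOS2. HOS-MNNG and KHOS are both derivatives of the HOS line, so the 6 osteosarcoma lines are not 6 independent tumours. The lines are tumour cells in culture, without stroma.

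PXDN was expressed in both tumour types, in all lines but 1. Its mean lay between 29.6 and 255 TPM in 12 of the 13 lines and at 0.0563 TPM in the osteosarcoma line SAOS2, whose libraries gave 0.0721, 0.0103 and 0.0865 TPM, 16 counts in all. The highest values were those of MG63 (262, 242 and 259 TPM), RDES (233, 210 and 273 TPM) and A673 (174, 155 and 160 TPM). MG63 and RDES overlapped in their library values and A673 lay below both. The 8 lines from HOS-MNNG (82.9 TPM) down to U2OS (53.4 TPM) formed an unbroken series in which each overlapped with its neighbour. TC71 stood below that series at 29.6 ± 7.44 TPM (SD, n = 3). The median of the Ewing sarcoma lines, 68.6 TPM, was close to the 72.2 TPM of the osteosarcoma lines.

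A window at an annotated start of PXDN, rich in cytosine and guanine, is shown because PXDN is the member that was lower with doxycycline. Promoter windows of 300 bases (250 before a gene's start and 50 after it) were taken from RefSeq on GRCh38.p14 for the 5 members that had one in the table used. The 1 PXDN window of the table is chr2:1744466-1744765, read from the minus strand, around a start at 1744515. The gene as annotated reaches further upstream, to 1744901, which this window does not cover. It is printed with GGAA (TTCC on the other strand), the core that ETS factors such as FLI1 recognise, in capitals wherever present.

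PXDN promoter: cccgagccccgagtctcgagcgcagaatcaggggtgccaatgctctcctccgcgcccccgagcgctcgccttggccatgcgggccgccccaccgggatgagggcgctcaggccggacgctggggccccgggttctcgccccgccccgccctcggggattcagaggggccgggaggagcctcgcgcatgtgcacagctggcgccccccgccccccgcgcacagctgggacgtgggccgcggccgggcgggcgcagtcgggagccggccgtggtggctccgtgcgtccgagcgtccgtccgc

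No GGAA stood in this window on either strand, whereas 95.5% of the 35116 windows in the table held at least 1, with a median of 3. The window had 78.3% GC and 42 CpG dinucleotides, against medians of 58.7% and 14 over all windows. It held 5 copies of GGGCGG, the core of the SP1 motif, on either strand, a motif found in 44.95% of windows. These are matches of letters, not measured binding sites.

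**Figure D1:**
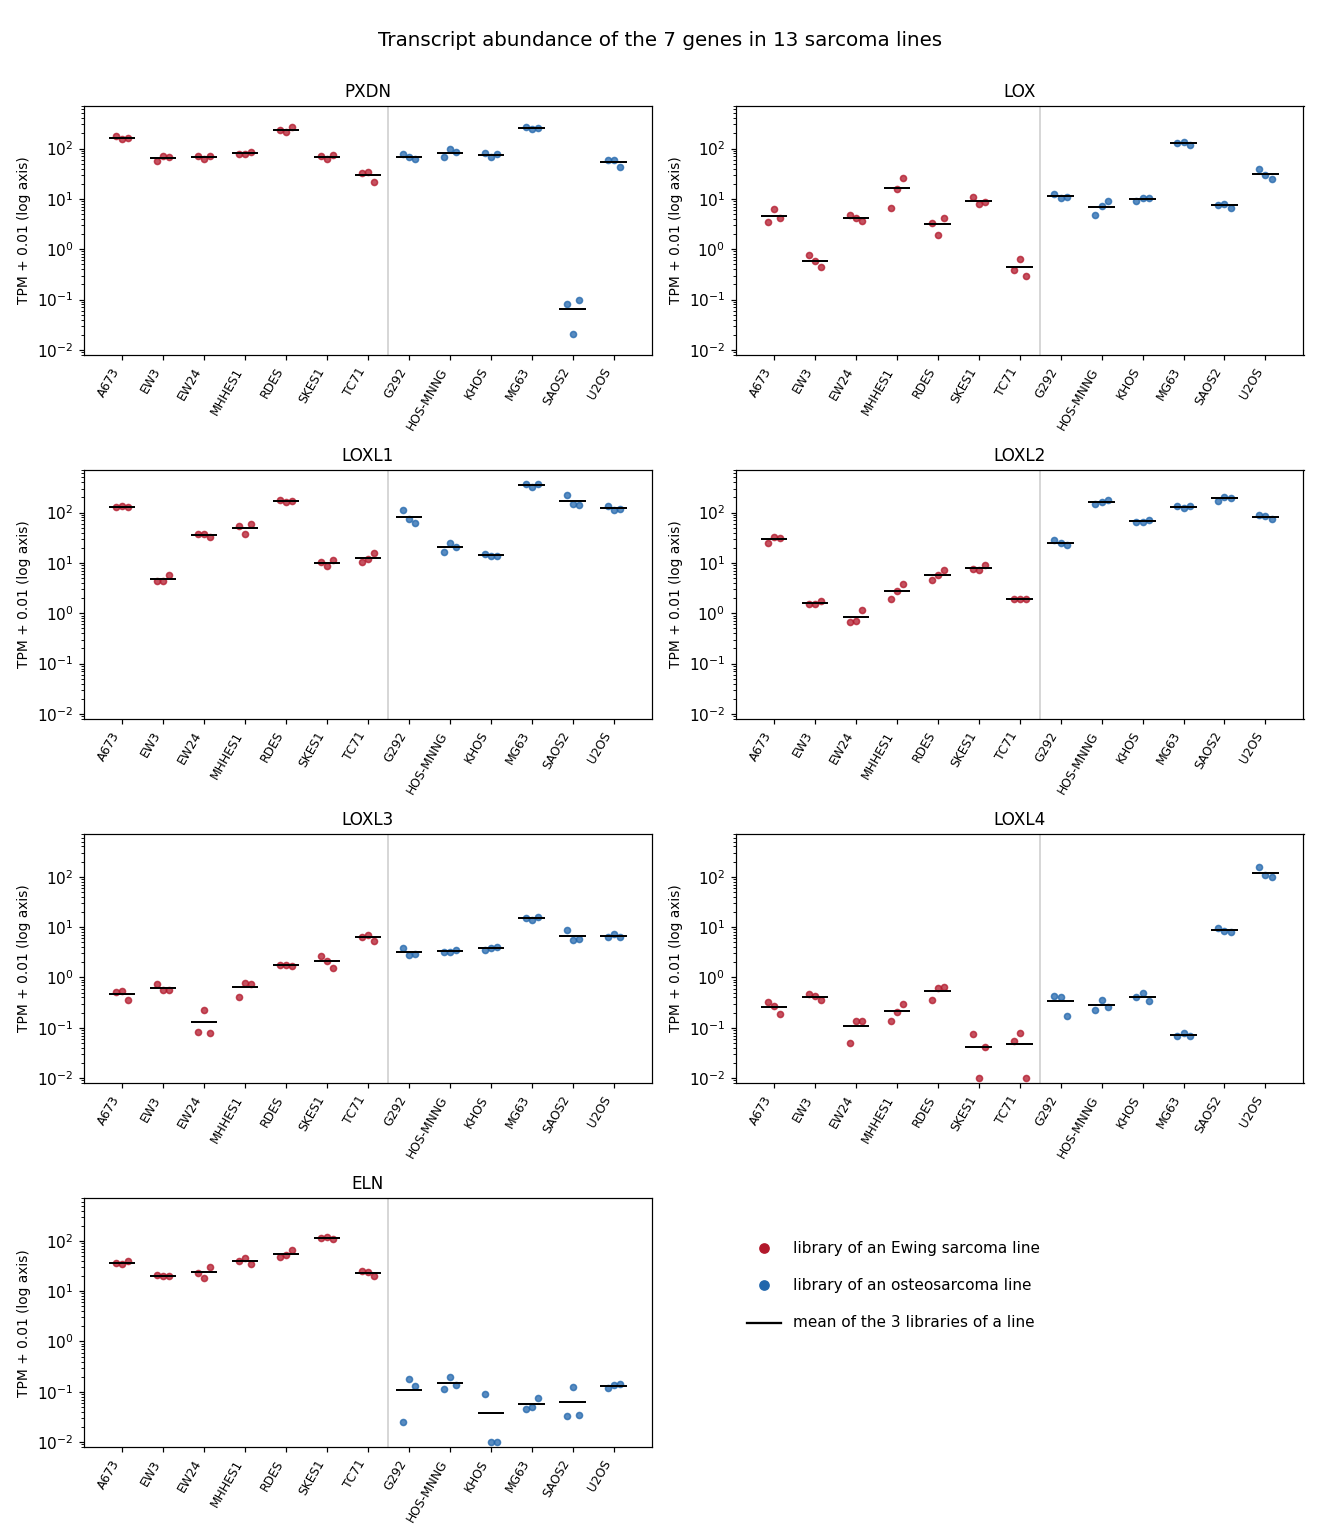
TPM plus 0.01 on a log axis for PXDN, LOX, LOXL1, LOXL2, LOXL3, LOXL4 and ELN, with 1 point per library, a bar at the mean of the 3 libraries of a line, Ewing sarcoma lines in red and osteosarcoma lines in blue. ELN separates the 2 tumour types without overlap, PXDN is near 0 in SAOS2 alone (0.0563 TPM), and LOXL4 is high in U2OS (121 TPM) and SAOS2 (8.63 TPM).

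Collagen IV, the substrate of peroxidasin, was low in SAOS2 too, but also in a line that kept PXDN. COL4A1 and COL4A2, which encode the 2 most widespread collagen IV chains, had means of 0.0173 and 0.258 TPM in SAOS2 and of 0.0485 and 0.0765 TPM in TC71. TC71 therefore had PXDN at 29.6 TPM beside almost no COL4A1 or COL4A2 transcript. The other 11 lines held both. Over the 13 line means of log2(TPM + 1), PXDN and COL4A1 had a Pearson r of 0.71 and a Spearman rho of 0.53, and r was 0.65 without MG63 and SAOS2, the lines farthest from the PXDN median. Without SAOS2 and TC71, a pair chosen after their values were seen, r was 0.07. Within the 7 Ewing sarcoma lines r was 0.83, and 0.72 without TC71. Within the 6 osteosarcoma lines it was 0.79, and -0.50 without SAOS2, so the osteosarcoma relation rested on that 1 line. COL4A2 gave r = 0.70 over all lines, 0.06 without that pair, 0.83 within the Ewing sarcoma and 0.79 within the osteosarcoma lines. The points share their libraries and are given without a p-value.

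**Figure D2:**
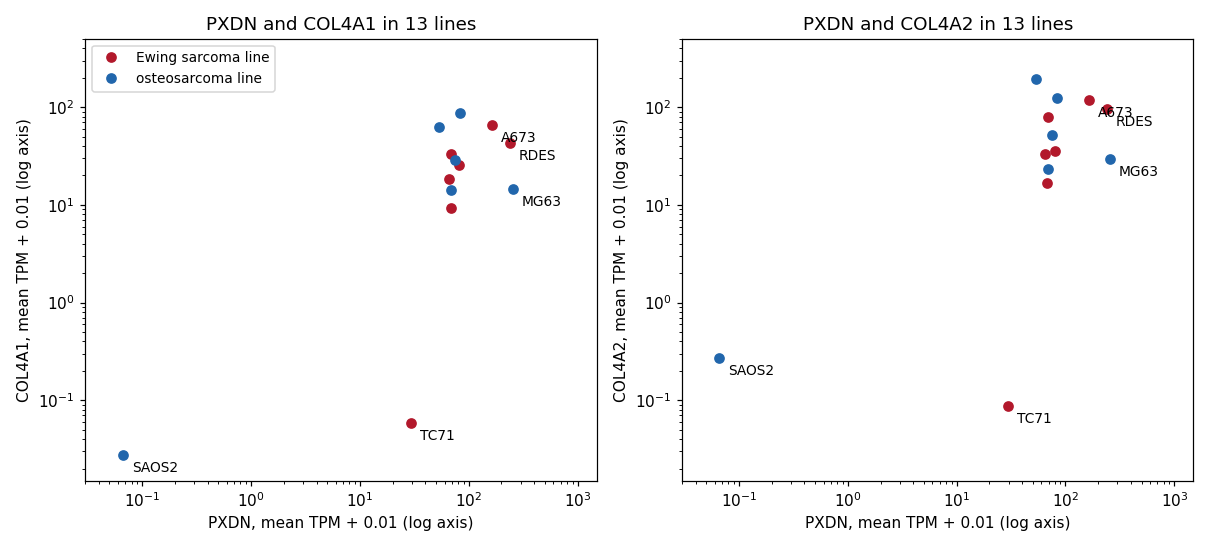
Mean TPM plus 0.01 of COL4A1 (left) and COL4A2 (right) against that of PXDN, both on log axes, with 1 point per line, Ewing sarcoma in red and osteosarcoma in blue. SAOS2 lies at the low end of both genes, and TC71 has low collagen IV with PXDN at 29.6 TPM.

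Several annotated transcripts carried the PXDN level. NM_012293.3 had the largest share in 7 of the 12 lines with at least 30 counts in each library, and XM_047445788.1 in the other 5. The mean share of NM_012293.3 was 39.8 ± 9.59% (SD over 7 Ewing sarcoma lines) and 39.5 ± 6.68% (SD over 5 osteosarcoma lines). Such shares are estimates for transcripts that overlap over most of their length.

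LOX, the founding member of the family, was low in most Ewing sarcoma lines and high in MG63. In MG63 its libraries gave 130, 132 and 117 TPM, and no library of another line exceeded 39.7 TPM, reached in U2OS (39.7, 30.1 and 24.9 TPM). Among the Ewing sarcoma lines the mean ran from 0.430 TPM in TC71 through a median of 4.17 to 16.1 TPM in MHHES1. The MHHES1 libraries were spread widely, at 6.60, 15.8 and 25.9 TPM, and overlapped with those of U2OS. The osteosarcoma lines had 6.97 TPM or more. In the LOX order 10 of the 12 pairs of neighbouring lines overlapped, so only MG63 at the top, and EW3 (0.586 TPM) with TC71 at the bottom, stood apart from the rest. NM_002317.7 carried the largest share in all 12 lines with enough counts. Of the 3 LOX windows in the table the most upstream, chr5:122078210-122078509 (minus strand, RefSeq, GRCh38.p14), is shown for comparison with PXDN, with GGAA and TTCC in capitals.

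LOX promoter: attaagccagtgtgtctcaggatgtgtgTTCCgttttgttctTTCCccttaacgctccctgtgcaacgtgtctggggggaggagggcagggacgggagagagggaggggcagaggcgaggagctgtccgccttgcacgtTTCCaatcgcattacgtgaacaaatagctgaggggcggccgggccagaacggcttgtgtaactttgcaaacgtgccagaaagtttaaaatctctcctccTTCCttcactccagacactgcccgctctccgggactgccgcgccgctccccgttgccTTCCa

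It held 5 copies of GGAA on either strand, none of them as the tandem GGAAGGAA, which 3.67% of all windows contained. It also held 4 copies of ACGTG, the core of the hypoxia response element, on either strand, and 21.4% of windows had at least 1 copy. The other 2 LOX windows, which overlap each other, each held 4 copies of GGAA and 1 of ACGTG. The gene SRFBP1 overlaps LOX and had between 6.62 and 19.4 TPM in the 13 lines. It is not given in the sources at hand whether the authors' quantification used strand, so reads shared by overlapping genes may have been divided between them.

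LOXL1, the family member most closely tied to elastic fibres, was the most abundant lysyl oxidase of the Ewing sarcoma lines. It ranged there from 4.81 TPM in EW3 through a median of 36.5 to 171 TPM in RDES, a 35.5-fold span. In the osteosarcoma lines it ranged from 14.1 TPM in KHOS through a median of 102 to 356 TPM in MG63. The 3 libraries of RDES (179, 161 and 173 TPM) overlapped with those of SAOS2 (227, 148 and 141 TPM), and those of A673 (129, 138 and 128 TPM) with those of U2OS (137, 113 and 115 TPM). The tumour types were thus interleaved for LOXL1. NM_005576.4 carried the largest share in all 13 lines. The antisense gene LOXL1-AS1 had between 2.71 TPM (TC71) and 67.1 TPM (MG63), and where the transcripts of the 2 genes share sequence, their reads can be told apart only with strand.

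LOXL2, which crosslinks collagen IV and fibrillar collagens, was higher in the osteosarcoma lines, with 1 exception. Its osteosarcoma means ran from 25.1 TPM in G292 through a median of 108 to 192 TPM in SAOS2. In 6 of the Ewing sarcoma lines it was 8.06 TPM or less, with a lowest mean of 0.843 TPM in EW24. A673 gave 24.7, 32.6 and 30.6 TPM, overlapped with G292 (28.1, 24.7 and 22.6 TPM) and was the only Ewing sarcoma line to reach the osteosarcoma range. The gene lies on chromosome 8 and has 1 annotated transcript in the files, so its level does not depend on a split between isoforms.

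LOXL3, a less studied member of the family, had a lower mean than LOX, LOXL1 and LOXL2 in all 6 osteosarcoma lines, although in SAOS2 its libraries overlapped with those of LOX (6.66 against 7.43 TPM on average). It ran from 3.14 TPM in G292 to 15.05 TPM in MG63 (14.97, 14.01 and 16.2 TPM). Among the Ewing sarcoma lines 3 had 1 TPM or more, and TC71, with 6.43, 7.10 and 5.32 TPM, lay within the osteosarcoma range. EW24 had 0.120 TPM. TC71 thus combined the highest LOXL3 of the Ewing sarcoma lines with the lowest mean LOX of all 13 lines. The transcript that led differed between lines: 5 different transcripts led in the 10 lines with enough counts, and in TC71 NM_001289165.2 made up 73.6%. HTRA2 and DOK1 overlap LOXL3, and HTRA2 had between 20.5 and 52.1 TPM, above LOXL3 in every line.

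LOXL4 was expressed in 2 lines only at 1 TPM or more, both osteosarcoma. U2OS had 154, 109 and 99.4 TPM and SAOS2 had 9.56, 8.49 and 7.83 TPM. The other 11 lines had means between 0.0316 TPM (SKES1, 5 counts) and 0.525 TPM (RDES, 107 counts), and 1 library each of SKES1 and TC71 held none. The promoter window, chr10:98268145-98268444 (minus strand, RefSeq, GRCh38.p14), is shown because LOXL4 had the largest difference between lines of 1 tumour type after PXDN, again with GGAA and TTCC in capitals.

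LOXL4 promoter: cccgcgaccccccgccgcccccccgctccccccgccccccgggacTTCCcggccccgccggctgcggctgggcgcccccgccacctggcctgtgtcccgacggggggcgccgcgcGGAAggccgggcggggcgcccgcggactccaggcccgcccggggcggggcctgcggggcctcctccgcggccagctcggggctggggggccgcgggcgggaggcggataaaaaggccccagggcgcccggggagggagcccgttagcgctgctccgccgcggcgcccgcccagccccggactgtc

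This window had 85.3% GC and 45 CpG dinucleotides. It held 2 copies of GGAA and 7 of GGGCGG on either strand. In U2OS and SAOS2 NM_032211.7 made up 65.3 to 70.9% of the LOXL4 level.

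ELN was the member that divided the tumour types. The Ewing sarcoma means ran from 20.2 TPM in EW3 (21.2, 19.7 and 19.8 TPM) through a median of 36.7 to 114 TPM in SKES1 (115, 118 and 108 TPM). All 18 osteosarcoma libraries together held 74 ELN counts, and their line means lay between 0.0272 and 0.139 TPM. The lowest Ewing sarcoma line had 146 times the level of the highest osteosarcoma line. SKES1, then RDES (47.2, 51.9 and 64.8 TPM), stood above the other Ewing sarcoma lines, and EW24, TC71 and EW3 overlapped at the lower end. In 6 of the 7 Ewing sarcoma lines XM_047419971.1 had the largest share of the 55 annotated ELN transcripts, with a mean of 28.6 ± 6.97% (SD, 7 lines).

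Together, the lysyl oxidases were more abundant in the osteosarcoma lines and differed in make-up. Their summed level was 74.2 ± 71.2 TPM over the Ewing sarcoma lines (SD, n = 7), from 8.01 in EW3 to 182 in RDES. It was 299 ± 202 TPM over the osteosarcoma lines (SD, n = 6), from 96.0 in KHOS to 629 in MG63, so the 2 ranges overlapped. By its mean LOXL1 led in all 7 Ewing sarcoma lines, with 34.4% of the sum in SKES1 and 93.9% in RDES, and in the osteosarcoma lines G292, MG63 and U2OS. In U2OS its lead over LOXL4 was small (122 against 121 TPM), and in replicate 1 LOXL4 (154 TPM) was above LOXL1 (137 TPM). LOXL2 led in HOS-MNNG (83.9%), KHOS (70.4%) and SAOS2 (50.1%). The SAOS2 lead was within the spread of its libraries, with 50.1 ± 8.62% LOXL2 beside 43.995 ± 8.40% LOXL1 (SD, n = 3), and in 1 of the 3 libraries LOXL1 (227 TPM) was above LOXL2 (170 TPM). SKES1 had a mixture of 30.9% LOX, 34.4% LOXL1 and 27.3% LOXL2, where in 1 of the 3 libraries LOX (10.9 TPM) was above LOXL1 (10.5 TPM). U2OS had one of 33.6% LOXL1, 32.8% LOXL4 and 23.1% LOXL2.

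**Figure D3:**
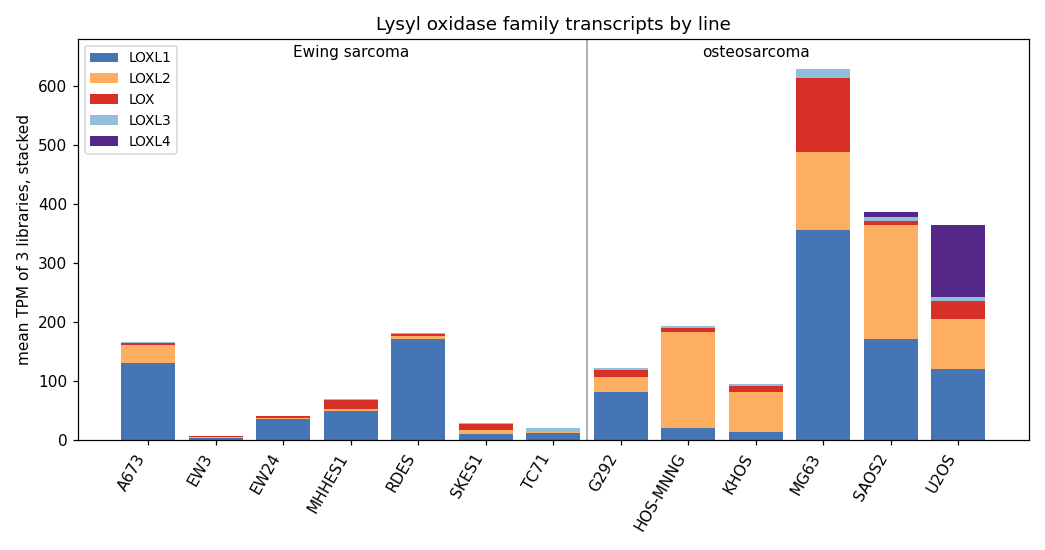
Mean TPM of the 5 lysyl oxidase genes, stacked, for each line, Ewing sarcoma lines on the left and osteosarcoma lines on the right. The bars reach 629 TPM in MG63 and 8.01 TPM in EW3, and LOXL2 makes up most of HOS-MNNG and KHOS.

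The difference between the tumour types was fitted over all genes with edgeR's quasi-likelihood test on counts summed per line, 7 Ewing sarcoma against 6 osteosarcoma lines. A gene was called at a Benjamini-Hochberg adjusted p under 0.05, which 14.4% of the 21975 genes tested met, 5.99% higher and 8.46% lower in Ewing sarcoma. Scaling by total counts in place of edgeR's trimmed mean (TMM) moved the median over the tested genes from -0.06 to 0.04 on the log2 scale and the split from 1317 higher and 1858 lower to 1611 higher and 1572 lower. The choice of members had used this contrast, so their fitted values are given without calls. ELN had a fitted log2 fold change of 9.02 (SE 0.65), LOXL2 of -3.95 (SE 0.85) and LOXL4 of -6.53 (SE 1.67). The LOXL4 value turned on U2OS: without that line it was -3.16. LOXL2 had -5.11 without A673. LOX had -2.69 (SE 0.91), LOXL3 -1.94 (SE 0.76) and LOXL1 -1.13 (SE 0.85), and without MG63 these were -1.37, -1.43 and -0.49. LOXL3 had -2.84 without TC71. PXDN stood at -0.02 (SE 0.92) and at 0.63 without MG63. ELN was the only member whose line means did not overlap between the types, which held for 5.59% of the genes tested. The median log2 fold change of the 7 members was -1.94, a description only, since this contrast was used to choose them.

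**Figure D4:**
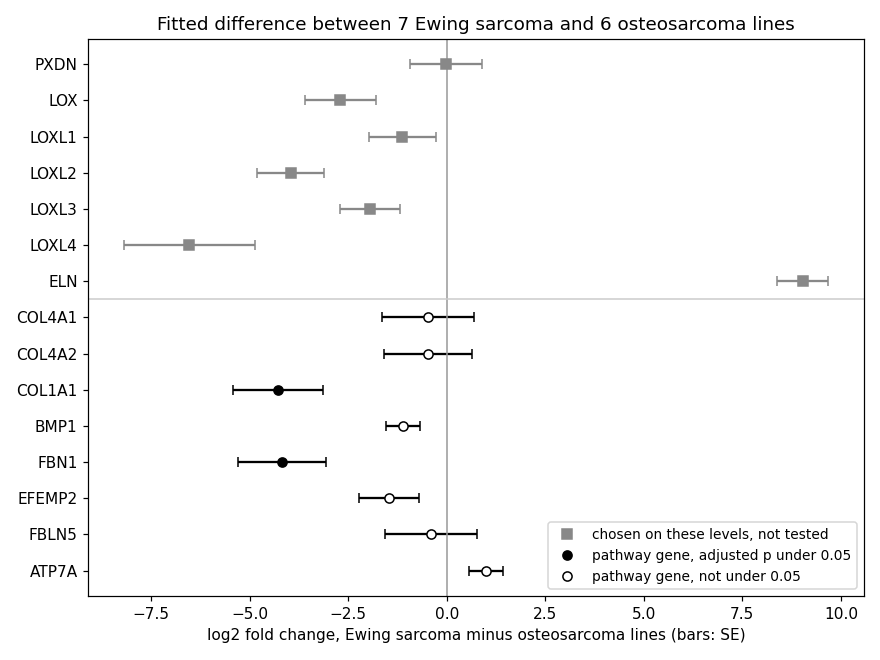
Fitted log2 fold change of Ewing sarcoma minus osteosarcoma lines with its SE for PXDN, LOX, LOXL1, LOXL2, LOXL3, LOXL4 and ELN (grey squares, not tested) and 8 genes of their pathways (circles, filled where the adjusted p was under 0.05). ELN lies at 9.02, and LOXL4 at -6.53 has the widest error bar.

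In the same fit 67 of the 81 tested genes of the members' pathways lay below 0 and 14 above. Of 19 elastic fibre and microfibril genes 2 were called higher and 5 lower in Ewing sarcoma, with a median log2 fold change of -0.54. Of these 19 genes 15 lay below 0 and 4 above, and FBN2 (-0.29, SE 1.24) and MFAP4 (3.81, SE 1.54) were not called. FBN1, the main fibrillin of microfibrils, had a log2 fold change of -4.17 (SE 1.11, edgeR adjusted p = 0.0247), with line means of 0.125 to 9.26 TPM against 3.65 to 141 TPM. EMILIN3 was higher by 4.67 (SE 0.99), without overlap of the lines. FBN3, another fibrillin, was higher by 8.48 (SE 2.09), but 4 of the 7 Ewing sarcoma lines reached 1 TPM, TC71 (0.00227 TPM) was below U2OS (0.0839 TPM), and the osteosarcoma lines held 26 counts in all. MFAP5, LTBP2 and EFEMP1, all microfibril-associated, were lower by 6.98, 6.67 and 6.66 on the log2 scale, but each overlapped between the types. MFAP5 reached 1 TPM in 4, and LTBP2 and EFEMP1 in 5, of the 6 osteosarcoma lines. FBLN5 (-0.40) and EFEMP2 (-1.46), the fibulins that carry lysyl oxidases onto elastin, were not called. The direction of FBLN5 turned on G292, without which it was 1.02.

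Among the fibrillar collagens 1 of 7 was called, a share near the 14.4% of all genes, with a median log2 fold change of -2.17 and 6 of 7 below 0. COL1A1, the main chain of type I collagen, had a log2 fold change of -4.29 (SE 1.14, edgeR adjusted p = 0.0242), with line means of 2.93 to 180 TPM against 72.4 to 3192 TPM. It was the one called, and without SAOS2 its edgeR adjusted p was 0.0519, the highest of 21 alternatives (lowest 0.000333). Without HOS-MNNG, KHOS or U2OS 2 fibrillar collagens were called. Of 17 procollagen modifying and folding genes (median -0.76) 1 was called higher (COLGALT2, 3.14) and 4 lower, among them the prolyl hydroxylase genes P4HA2 (-3.49) and P3H2 (-3.13) and the lysyl hydroxylase gene PLOD2 (-2.48), and without A673 8 were called. Of 8 propeptide proteases and enhancers (median -2.41) 4 were called, all lower, led by ADAMTS2 (-5.70), ADAMTS3 (-4.41) and ADAMTS14 (-3.74), and 2 were called without MG63. BMP1, the protease that also activates pro-LOX, had -1.11 (SE 0.42) and was not called.

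Of 18 basement membrane genes 4 were called, all lower, beside 8.46% of all genes called lower, and the median was -1.72. LAMA5 (-2.73) and LAMB2 (-2.29), which encode laminin chains, did not overlap between the types, whereas LAMA1 (-7.75) reached 1 TPM in 2 of the 6 osteosarcoma lines and overlapped. COL4A1 had -0.46 (SE 1.17) and COL4A2 -0.48 (SE 1.12), with a spread between lines of the same type far above that difference. TGM2, the tissue transglutaminase, was 1 of 2 other crosslinking enzymes tested and had -5.80 (SE 1.53), a call that was lost without MG63. Of 5 haem peroxidases tested (median 0.82) DUOX1 (3.75) and DUOX2 (4.51) were called higher. Both overlapped between the types. DUOX1 reached 1 TPM in 4 and DUOX2 in 2 of the 7 Ewing sarcoma lines, and neither did in an osteosarcoma line. With replicate 1, 2 or 3 of every line left out DUOX2 was below the count filter and only DUOX1 was called. Among 5 copper handling genes (median 0.54) 1 was called, a share near that of all genes. ATOX1 (-0.96), a copper chaperone, was called lower. ATP7A, the pump that loads copper onto lysyl oxidases, had 0.99 (SE 0.43) and was not called. Over all 85 listed genes, 81 were tested, 5 were called higher and 20 lower, and the median was -1.12.

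In the sh908 cells PXDN was lower with doxycycline, while the other 6 members overlapped between the groups. KCNN1, the target of the hairpin, had 37.8, 35.3 and 17.99 TPM in the uninduced and 10.2, 13.7 and 7.75 TPM in the induced cells, a lower value in all 3 same-numbered pairs. PXDN had 87.1, 72.5 and 100.5 TPM in the uninduced libraries and 24.2, 32.2 and 35.4 TPM once doxycycline was added. The 2 groups did not overlap for PXDN, as for 3.65% of the 14252 genes tested, and the means were 86.7 ± 14.004 and 30.6 ± 5.79 TPM (SD, n = 3). Without a term for the replicate number edgeR called 0 genes (0%), although 94 had an unadjusted p under 0.05 and DESeq2 called 2 (0.014%). The libraries with the same number deviated together from their group means, so the fit with the replicate number as a block was made too: it called 73 genes (0.512%). The fitted log2 fold change of PXDN was -1.47 both without the block (SE 0.21) and with it (SE 0.11), and lay between -1.60 and -1.32 when single libraries or pairs were left out. The 2 libraries numbered 3 stood apart from the other 4 across genes, and without them PXDN had -1.49. PXDN was listed for this response, so no call is read from it. No other hairpin was given doxycycline, so the agent and the hairpin cannot be told apart.

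**Figure D5:**
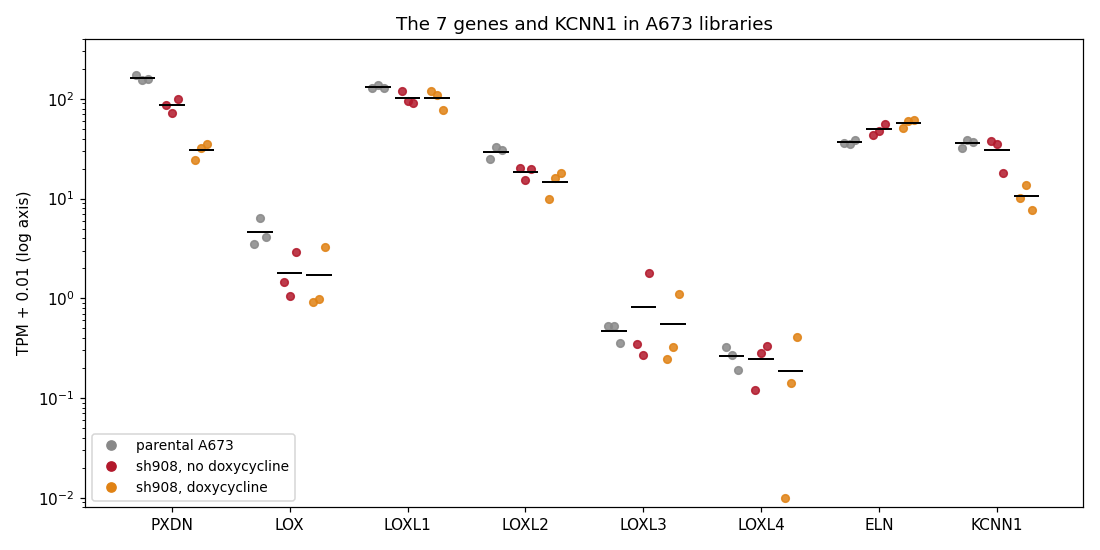
TPM plus 0.01 on a log axis for PXDN, LOX, LOXL1, LOXL2, LOXL3, LOXL4, ELN and KCNN1 in parental A673 (grey), sh908 cells without (red) and with doxycycline (orange), with 1 point per library and bars at the group means. PXDN and KCNN1 with doxycycline lie below all libraries without it, and the other 6 genes overlap.

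The leading PXDN transcript had a like share in both groups. XM_005264707.4 led, with 42.1 ± 5.39% without and 42.1 ± 2.73% with doxycycline (SD, n = 3). It led in none of the 12 untreated lines with enough counts.

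The other members overlapped between the groups. ELN had 43.7, 48.1 and 56.6 TPM uninduced and 50.5, 60.5 and 61.6 TPM induced, higher in all 3 pairs, with a log2 fold change of 0.25 (SE 0.09 in the fit with the block). LOXL1 had 102 ± 15.6 and 102 ± 22.3 TPM, and LOXL2 had 20.3, 15.2 and 19.8 against 9.79, 16.002 and 18.1 TPM. Only the first pair showed a large difference for LOXL2. LOX had 1.46, 1.05 and 2.90 against 0.917, 0.977 and 3.27 TPM. LOXL3 had 0.339, 0.257 and 1.80 against 0.234, 0.314 and 1.09 TPM, and LOXL4 stayed at 0.404 TPM or less. For LOX and LOXL3 the 2 libraries numbered 3 were above the other 4, more than the doxycycline groups differed. Of the 85 listed pathway genes 63 were tested, and in the fit with the block 1 was called: EMILIN2, a microfibril-associated gene, was higher by 1.003 on the log2 scale (SE 0.171, edgeR adjusted p = 0.0400). EMILIN2 went from 5.60, 2.25 and 0.648 TPM to 12.4, 5.67 and 0.770 TPM, higher in all 3 pairs. Without the block its log2 fold change was 1.18, and it was 0.084 without induced replicate 1 and 2.11 without uninduced replicate 1. Its call was lost with the block when pair 1 or 2 was left out (edgeR adjusted p = 0.555 and 0.287) or the length offset was added (0.0522), and in every fit without the block, and held in 3 of 17 alternatives. COL4A1 (0.02, SE 0.13) and COL4A2 (0.07, SE 0.09) were not called in that fit, with means of 25.6 against 26.1 TPM and of 67.4 against 68.6 TPM. COL1A1, BMP1, FBN1, EFEMP2, FBLN5 and ATP7A were not called either.

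The uninduced sh908 cells were also set against parental A673. The listing of the members had not named this contrast, but it had used values of both groups of libraries. The members' calls and adjusted p below are thus not independent of the listing and are given as a description. Cell stock, vector and library set differ together in this contrast and cannot be told apart. ELN was higher in the uninduced cells, at 43.7, 48.1 and 56.6 TPM against 35.8, 35.2 and 39.02 TPM in the parental cells. Its log2 fold change was 0.89 (SE 0.14, edgeR adjusted p = 0.0149), and it was the 1 member called, beside 15.1% of the 15778 genes tested. The call was lost when any 1 parental library, or uninduced replicate 2, was left out (adjusted p from 0.0572 to 0.108), and over 13 alternatives its adjusted p ran from 3.73e-07 to 0.108.

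PXDN and LOX were lower in the uninduced cells in TPM, without a call. PXDN had 174, 155 and 160 TPM in the parental cells, so that the uninduced level was 53.2% of it. Its log2 fold change was -0.46 (SE 0.17, edgeR adjusted p = 0.104). LOX had 3.50, 6.34 and 4.13 TPM in the parental against 1.46, 1.05 and 2.90 TPM in the uninduced cells, with a log2 fold change of -1.04 (SE 0.33, edgeR adjusted p = 0.0806). Neither gene overlapped between the groups, nor did LOXL1, LOXL2 and ELN, but 46.6% of the genes tested did not overlap. DESeq2 called 26.4% of genes, ELN, LOX and PXDN among them. Without uninduced replicate 3, which stood apart, edgeR called 10202 of 16379 genes (62.3%) and 4 of the 7 members, a share no higher than that of all genes: ELN (1.001), LOX (-1.29), LOXL1 (0.37) and PXDN (-0.37). Over 13 alternatives the adjusted p of PXDN ran from 0.00185 to 0.326 and that of LOX from 0.00352 to 0.268.

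The scale mattered in this contrast. The median gene with at least 1 TPM in both groups was lower by 0.36 in log2 TPM in the uninduced cells, whereas the median fitted change was 0.01. LOXL1 was lower in TPM, at 102 ± 15.6 against 132 ± 5.63 (SD, n = 3), but had a fitted log2 fold change of 0.14 (SE 0.24), and -0.10 with total-count scaling, and was called in neither. PXDN with total-count scaling had -0.67 (edgeR adjusted p = 0.0195). The calls split into 1375 higher and 1013 lower genes in the main fit and 740 higher and 1268 lower with total-count scaling. LOXL2 (-0.20, SE 0.20), LOXL3 (1.07, SE 0.65) and LOXL4 (0.36, SE 0.50) were not called, and the wide error of LOXL3 came with 1 uninduced library at 1.80 TPM beside others at 0.339 and 0.257 TPM.

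Among the pathway genes of this contrast 65 of 85 were tested, 7 were called higher and 6 lower, with a median of 0.12, beside the 15.1% called of all genes. Elastic fibre genes MFAP4 (1.41) and MFAP2 (1.06) were called higher with ELN, and FBN1 (-1.04, edgeR adjusted p = 0.0436, from 0.00413 to 0.173 over 13 alternatives) lower. With total-count scaling MFAP4 and MFAP2 were not called (edgeR adjusted p = 0.0807 and 0.0898). COL4A1 was lower by a log2 fold change of -0.94 (SE 0.17, edgeR adjusted p = 0.0185, from 2.60e-06 to 0.106 over 13 alternatives), and LAMA3 (-1.51) was lower as well. COL4A2, COL1A1, BMP1, EFEMP2, FBLN5 and ATP7A were not called. HSPG2, encoding perlecan, was higher (1.20). COL3A1 was lower (-0.96), and PPIB (0.74), a chaperone of collagen folding, TGM2 (2.29) and ATOX1 (1.29) were higher. None of the 13 pathway calls was kept when any 1 parental library was left out, and HSPG2, TGM2 and ATOX1 alone kept theirs without uninduced replicate 2. PPIB was called in 3 of 13 alternatives.

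Genes that followed each member most closely over the 13 line means were sought by the Pearson correlation of log2(TPM + 1) among 11681 genes with a mean of 5 TPM or more. For ELN they were PHOSPHO1, PTGER3 and FEZF1 (r = 0.98, 0.98 and 0.98), each high in Ewing sarcoma, with PTGER3 at a mean of 124 TPM against 0.117 TPM. For LOXL2 they were PTPRJ, AXL and THBS1 (r = 0.94, 0.94 and 0.93), AXL having a mean of 2.82 TPM against 179 TPM in osteosarcoma. These genes were picked for likeness to the members, so a split by tumour type follows from the choice and is no separate result. Those of ELN passed the filter through Ewing sarcoma lines, with osteosarcoma means of 0.85, 0.117 and 0.109 TPM. Those of LOXL2 passed it through osteosarcoma lines, with Ewing sarcoma means of 2.44, 2.82 and 1.82 TPM. With a pseudocount of 0.1 in place of 1 only 1 of the 3 for ELN and 0 of the 3 for LOXL2 stayed among the nearest.

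For LOXL1 the nearest were PAM, ECM1 and FSTL1 (r = 0.91, 0.89 and 0.89), for LOX they were TSPAN17, CD82 and TNS2 (r = 0.92, 0.88 and 0.87), and for LOXL3 they were SNX7, RAB32 and B3GALNT1 (r = 0.87, 0.85 and 0.85). PXDN was followed by CLUAP1, TRIP4 and MANBAL (r = 0.91, 0.91 and 0.90), all lowest in SAOS2, with Spearman rho of 0.34, 0.66 and 0.44. LOXL4 was followed by SHOC1, LINC01638 and TNNC1 (r = 0.99, 0.99 and 0.98), all highest in U2OS, of which 1 stayed with a pseudocount of 0.1 and 1 with a mean of 1 TPM as the filter. Each passed the filter through osteosarcoma lines, with Ewing sarcoma means of 0.136, 0.0947 and 0.462 TPM. Without SAOS2 the r with PXDN was 0.49, 0.34 and 0.59, so that likeness rested largely on 1 line. Without U2OS the r with LOXL4 was 0.97, 0.97 and 0.87, with rho of 0.13, 0.60 and 0.53. Among the lines then left, LOXL4 was at 8.63 TPM in SAOS2 and at 0.525 TPM or less in the others. Whether that r rested on SAOS2 was not tested. The points share libraries and their depth, and no p-value is given. Among the members, LOXL2 and ELN ran in opposite directions (r = -0.81, rho = -0.59), but within the 7 Ewing sarcoma lines r was 0.53 and within the 6 osteosarcoma lines -0.08. Of the pathway genes BMP1 followed LOXL1 (r = 0.81), with r = 0.67 within the Ewing sarcoma and 0.90 within the osteosarcoma lines.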

How the data were processed

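The 45 libraries were prepared with a stranded mRNA kit, per the labels' protocols, and the submitters' processing notes name fastp 0.19.5, kallisto 0.46.2 and the builds hg38 and GRCh38.p14. The deposited tables give, per the file headers, an estimated count, a TPM value and an effective length for each of 177816 RefSeq transcripts. The estimated counts and TPM deposited by the authors were summed per gene here through a RefSeq table of GRCh38.p14, which matched 95.6% of transcripts. Transcripts without a match, which held 0.915 to 1.60% of each library's counts, were left out. Whether strand was used in the authors' quantification is not given in the sources used here.

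Summed counts were rounded and tested with edgeR 4.0.16 (filterByExpr, TMM, robust quasi-likelihood test, Benjamini-Hochberg adjustment over all genes) in R 4.3.3; for the tumour types the rounded counts of the 3 libraries of a line were added first, so that the line was the replicate. DESeq2 1.42.0 was an alternative. The code was tested on simulated data. The same-numbered libraries with and without doxycycline deviated together (r = 0.68, 0.58 and 0.88, all above 0.1), which was taken as pairing; for parental and uninduced cells r was 0.05, 0.09 and 0.25, and the numbers were not taken as pairs.

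The members, the pathway and marker lists and the tests were chosen with earlier results of these data known. Beside the members, KCNN1 and COL4A1, COL4A2, COL1A1, BMP1, FBN1, EFEMP2, FBLN5 and ATP7A were named whatever their values, and from each pathway list the called genes of largest change, up to 3 each way between tumour types and up to 2 each way in the other comparisons. FBN2 and MFAP4 were named between the tumour types after the values were seen. Transcript shares needed 30 counts in each library of a line. Sequences were copied from a RefSeq promoter table of GRCh38.p14, from which windows of 5 of the 7 members were used. Alternatives were DESeq2, RLE size factors, no filter, a length offset, the replicate block, leaving out lines, libraries or pairs and, added after the data were seen, total-count scaling without TMM and likeness without SAOS2 or U2OS.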

Additional observations from a re-analysis of the deposited data

Results flagged for a closer look

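COL4A2 in TC71 stood apart from the other Ewing sarcoma lines. Its mean of 0.0765 TPM left a gap to the next line of 0.596 of the whole range of the 7 lines on the log2(TPM + 1) scale, above Dixon's critical value of 0.568. It was the 1 case among 16 groups looked at (8 pathway genes in each tumour type), and chance flags about 1 group in 20. TC71 also had the lowest mean PXDN of the Ewing sarcoma lines, 29.6 TPM, and the part of either in the other was not tested. The members were left out of this check, since their levels in the lines had been used to choose them.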

How the results depend on the processing

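All members but PXDN kept the sign of their fitted difference between the tumour types in all 21 alternatives. DESeq2 called 5406 genes there against 3175. PXDN changed sign around 0, to 0.14 with total-count scaling, to 0.018 without the filter, and between -0.29 and 0.63 as lines or replicates were left out; COL4A1 ran from -0.94 to 0.13 and FBLN5 from -0.78 to 1.02. With doxycycline, against 0 genes, the replicate block called 73 genes, with the length offset 49 and with total-count scaling 95, DESeq2 2 and the fit of all 45 libraries 12. Leaving out libraries or pairs gave 0 to 167 genes; COL4A1 ran from -0.20 to 0.23 (-0.020 with the block and total-count scaling) and COL4A2 from -0.0020 to 0.18. For uninduced against parental cells, where the numbers do not pair the libraries, the replicate block called 319 genes, with the length offset 201 and with total-count scaling 14, each with 0 members, against 2388 genes and 1 member. DESeq2 called 4169 genes and 3 members, total-count scaling 2 members. Leaving out single libraries gave 2 to 10202 genes and 0 to 4 members; LOXL1 ran from -0.050 to 0.37, and had -0.10 with total-count scaling and -0.11 with the block too. The causes were not tested. Levels under 1 TPM rest on few counts, and 3 libraries per group or 6 to 7 lines per tumour type limit what could be called.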
